A study of Mus musculus with 8 samples.

Results

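The 9 genes for the major fibrillar collagen chains, Col1a1, Col1a2, Col2a1, Col3a1, Col5a1, Col5a2, Col5a3, Col11a1 and Col11a2, were followed in RNA-seq of hind limb tumours of mice. They were chosen by symbol among the 26667 genes of the counts, and all 9 were present. The tumours were undifferentiated pleomorphic sarcomas (UPS) made by injecting adenovirus carrying Cre recombinase into the gastrocnemius muscle of animals of mixed 129/C57BL/6 strain. All carried Trp53 fl/fl. The 4 KP tumours (KP 5, 6, 7 and 8) carried no further floxed allele, and the 4 KPH2 tumours (KPH2 1, 2, 3 and 4) also carried Epas1 fl/fl, Epas1 being the gene for HIF-2α. Cre acts only in cells that the virus reaches, and a tumour sample can also hold host cells that kept their Epas1 gene. The share of such cells was not measured. By PCR the paper found Epas1 to be efficiently deleted in KPH2 tumours. The methods of the study put the mice at 8 weeks of age or above when injected, and the end at 7 weeks after injection or at the size limit of the tumour. The age of each animal is not given in the sources used here. KPH2 1 is absent from the authors' table of 7 tumours and was taken to be the knockout tumour that they set aside as a technical outlier. It is shown apart throughout, and comparisons were made over the other 7 tumours and again over all 8.

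Fibrillar collagens are the rope-like proteins of the extracellular matrix, wound from 3 α chains into a triple helix and then packed into fibrils. Type I (chains from Col1a1 and Col1a2) makes up most of the collagen of bone, tendon and scar, and type III (Col3a1) accompanies it in skin, vessels and stroma. Type V (Col5a1, Col5a2 and Col5a3) is a minor component that starts type I fibrils and limits their width, while type II (Col2a1) with type XI (Col11a1 and Col11a2) forms the fibrils of cartilage. Fibroblasts and mesenchymal tumour cells are major makers of types I, III and V in soft tissue.

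Each tumour gave 1 library. The libraries held 6463221 to 13155510 counts per tumour, and the 9 genes together took 1.27% to 2.28% of them in KP tumours. They took 1.06%, 1.76% and 0.882% in KPH2 2, 3 and 4, and 0.877% in KPH2 1. Levels are given as counts per 1e+06 counts (CPM) of the library size after TMM scaling, which sets libraries to a common composition. Epas1, the deleted gene, measured 59.6, 82.2, 85.5 and 85.1 CPM across KP 5, 6, 7 and 8, against 32.0, 54.2, 37.8 and 42.4 CPM across KPH2 1, 2, 3 and 4. All KPH2 tumours were below all KP tumours for Epas1, with a log2 fold change of -0.81 and an adjusted p of 0.0742 by edgeR over 7 tumours. UPS is defined by the absence of a clear line of differentiation and has no marker list of its own. Vim, a general mesenchymal gene named after its values were seen, was at 1329 to 2948 CPM in KP and 1759 to 2205 CPM in KPH2 tumours.

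The 9 genes lie on 8 chromosomes of GRCm38. Col3a1 (Entrez Gene 12825, chr1:45311538-45349706, plus strand) and Col5a2 (12832, chr1:45374331-45503282, minus strand) are neighbours that end towards each other, 24624 bases apart. The other chains of types I and V are at chr11:94936224-94953042 (Col1a1, 12842, plus), chr6:4505618-4541543 (Col1a2, 12843, plus), chr2:27886381-28039510 (Col5a1, 12831, plus) and chr9:20770050-20815117 (Col5a3, 53867, minus). The cartilage chains are at chr15:97975602-98004724 (Col2a1, 12824, minus), chr3:114030479-114220756 (Col11a1, 12814, plus) and chr17:34038919-34066684 (Col11a2, 12815, plus). Exons of Col5a1 are overlapped on the opposite strand by 2810430I11Rik over 500 bases and by Gm13372 over 182 bases. The strand setting of the counting is not given in the sources used here, so reads of these pairs may not have been told apart.

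Promoter sequences from RefSeq (GRCm38.p6) were held for 6 of the 9 genes. The 250 bases before each start were searched on both strands for ACGTG and GCGTG, the letters that HIF proteins bind, and for CCAAT and TATAAA. Of 32851 promoter windows of this length, 38.6% held ACGTG or GCGTG, 33.8% held CCAAT and 12.4% held TATAAA. The sequences shown are those of the most abundant chain (Col3a1) and of Col5a3, the chain whose KPH2 tumours all lay below the KP tumours. Searched letters found in them are in capitals, and each is read 5′ to 3′ on the strand of the gene.
Col3a1, chr1:45311288-45311537, plus strand: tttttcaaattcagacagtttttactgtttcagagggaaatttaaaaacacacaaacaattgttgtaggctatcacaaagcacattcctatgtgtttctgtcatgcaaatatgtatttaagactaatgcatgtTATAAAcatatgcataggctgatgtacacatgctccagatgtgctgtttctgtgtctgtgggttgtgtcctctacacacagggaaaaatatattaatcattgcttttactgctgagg
Col5a3, chr9:20815118-20815317, minus strand: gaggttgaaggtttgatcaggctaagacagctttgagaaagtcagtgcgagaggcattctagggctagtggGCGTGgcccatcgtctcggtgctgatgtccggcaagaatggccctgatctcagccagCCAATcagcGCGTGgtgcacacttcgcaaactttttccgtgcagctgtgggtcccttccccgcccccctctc
Col3a1 held TATAAA and neither of the HIF letters, and its window was 35.2% G or C. Col5a3 held GCGTG at 179 and at 113 bases before the start in the promoter table with CCAAT at 122. That start lies 50 bases inside the gene as placed above, and those 50 bases are not printed. Its window was 62.8% G or C. Col1a2, the other abundant chain with a sequence, and Col11a2, whose KPH2 tumours all lay above the KP tumours, are shown only around the HIF letters, here read as CACGT or GCGTG. The whole window of Col1a2 and 219 of the 250 bases of that of Col11a2 lie within annotated transcripts. Not shown are CCAAT in the window of Col1a2, 109 bases before the start in the promoter table, and TATAAA in that of Col11a2, at 143.
Col1a2, chr6:4505477-4505501, plus strand: caaaagtgtcCACGTcctcaaaaag
Col1a2, chr6:4505521-4505545, plus strand: gccccgtagcCACGTccctcccccc
Col11a2, chr17:34038904-34038928, plus strand: gggcaattagCACGTcacccatctc
Col11a2, chr17:34039067-34039091, plus strand: ttacgagtggGCGTGgaacggtcgc
Col5a1 also held CACGT, 216 bases before its start in the promoter table, which lies 44 bases inside the gene as placed above, while the window of Col11a1 held CCAAT on the opposite strand and neither HIF letter. These matches describe the letters alone.

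To set the chains beside each other, CPM was divided by the length of the exons of RefSeq-linked transcripts in kb. Type III and type I chains led in both groups. In KP tumours Col3a1 stood at 1254 ± 96.7 CPM per kb (SD, n = 4), Col1a2 at 720 ± 431 CPM per kb and Col1a1 at 469 ± 307 CPM per kb. The type V chains followed, with Col5a2 at 186 ± 25.5 CPM per kb, Col5a1 at 79.3 ± 14.8 CPM per kb and Col5a3 at 41.1 ± 17.2 CPM per kb. Of the cartilage chains Col11a1 reached 14.5 ± 6.29 CPM per kb, whereas Col2a1 and Col11a2 were near the bottom at 0.450 ± 0.366 and 0.347 ± 0.140 CPM per kb. The order of the group means was the same in KPH2 2 to 4, from Col3a1 at 1161 ± 262 CPM per kb (SD, n = 3) to Col11a2 at 0.918 ± 0.410 CPM per kb. Among KP tumours the ranges of neighbours in this order overlapped for Col3a1 and Col1a2, for Col1a2 and Col1a1, and for Col2a1 and Col11a2. Within single tumours Col3a1 nevertheless exceeded Col1a2, and Col1a2 exceeded Col1a1, in 8 of 8, while Col2a1 exceeded Col11a2 in 5 of 8. Col1a1 exceeded Col5a2, and Col5a3 exceeded Col11a1, in 7 of 8. The exceptions were KPH2 4, with Col5a2 at 127 and Col1a1 at 118 CPM per kb, and KPH2 1, with Col11a1 at 21.1 and Col5a3 at 10.9 CPM per kb. With the exons of all GENCODE transcripts as the length, Col1a1 stood above Col1a2, since the mean ratio of the 2 in KP tumours moved from 0.655 to 1.38. The last places changed too, with Col11a2 at 0.319 and Col2a1 at 0.249 CPM per kb in KP tumours.

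**Figure D1:**
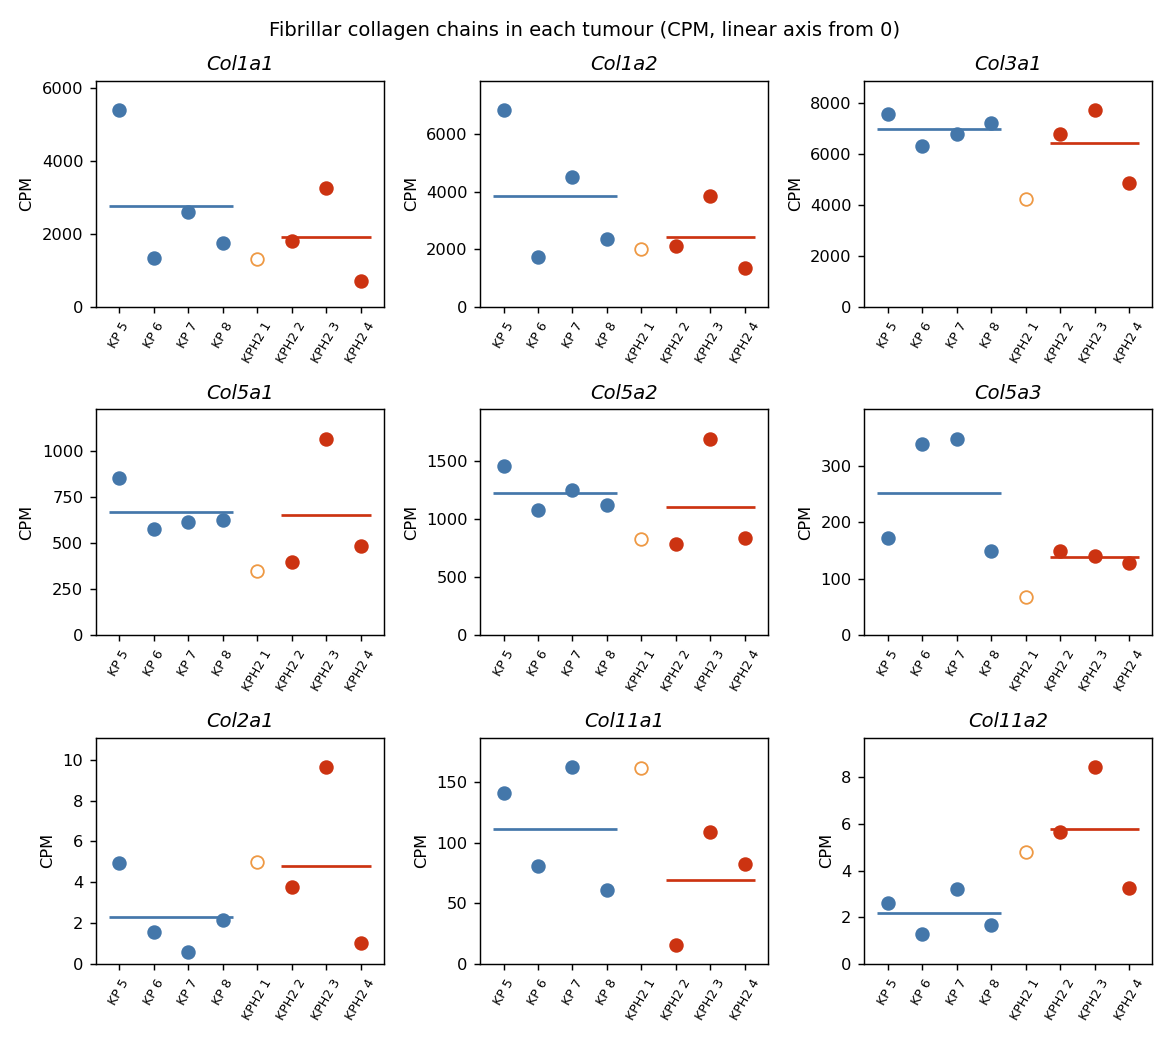
Level of each fibrillar collagen chain in each tumour, in CPM on a linear axis from 0, with 1 panel per gene. Blue points are KP tumours, red points KPH2 2 to 4 and the open orange point KPH2 1, and lines are the means of KP and of KPH2 2 to 4. Most panels overlap between groups, while for Col5a3 KPH2 points lie below 149.7 CPM, the lowest KP tumour, and for Col11a2 above 3.21 CPM, the highest KP tumour.

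None of the 9 chains passed the test between KP and KPH2 tumours. All 9 passed the filter on low counts, and 0 of 9 had an adjusted p under 0.05 by edgeR's quasi-likelihood test over 7 tumours, where 1.96% of the 14867 tested genes did. DESeq2 also called 0 of the 9 beside 6.97% of 16733 genes, and limma on the deposited log2 values 0 of the 9 beside 2.17% of 14867. At an unadjusted p under 0.05 by edgeR there were 2 of 9, Col5a3 and Col11a2, beside 17.8% of all tested genes. The same 2 were the members whose groups did not overlap over 7 tumours, beside 16.8% of all tested genes. Col5a3 was the 1 chain lower without overlap, beside 7.83% of genes, and Col11a2 the 1 chain higher, beside 9.01%. Over all 8 tumours the count called was 0 of 9 beside 0.00675% of all genes, 2 of 9 had an unadjusted p under 0.05 beside 14.7%, and 2 of 9 did not overlap beside 8.15%. In each direction that was again 1 chain, beside 4.4% of genes lower and 3.75% higher. By the fitted change 7 chains were lower and 2 higher in KPH2 tumours, with a median log2 fold change of -0.16 over 7 tumours, where the median of all tested genes was -0.02. In bulk RNA of a tumour, fewer cells of a type and less RNA per cell cannot be told apart.

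**Figure D2:**
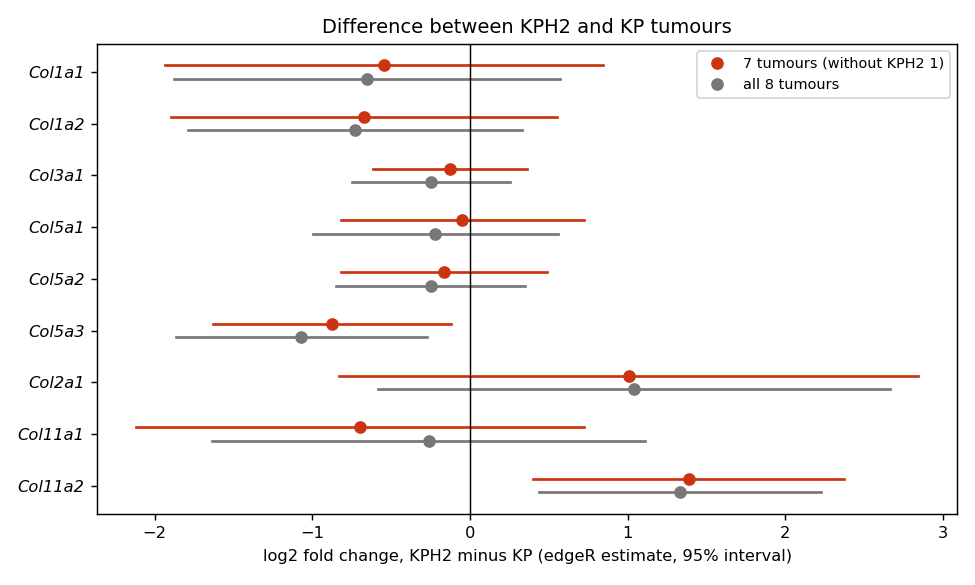
Log2 fold change of each chain, KPH2 minus KP, estimated by edgeR with its 95% interval, over 7 tumours (red) and over all 8 (grey). The intervals of Col5a3 lie below 0 and those of Col11a2 above 0 before any adjustment over the tested genes, and those of the other 7 chains cross 0.

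The type I chains differed more between tumours of one group than between groups. Col1a1, the α1 chain, measured 5396, 1354, 2618 and 1762 CPM across KP 5, 6, 7 and 8, then 1812, 3255 and 702 CPM across KPH2 2, 3 and 4, with KPH2 1 at 1311 CPM. The KP mean was 2783 ± 1820 CPM (SD, n = 4) against 1923 ± 1280 CPM (SD, n = 3) for KPH2 2 to 4. The log2 fold change was -0.54, with a 95% interval from -1.93 to 0.84 and an adjusted p of 0.693 by edgeR. KP 5 was the highest and KPH2 4 the lowest of the 8, and the groups overlapped between 1354 and 3255 CPM. Col1a2, the α2 chain, measured 6813, 1733, 4504 and 2343 CPM across KP 5, 6, 7 and 8, then 2118, 3846 and 1344 CPM across KPH2 2, 3 and 4, with KPH2 1 at 2003 CPM. Its log2 fold change was -0.67, with an interval from -1.90 to 0.56 and an adjusted p of 0.567 by edgeR. The order of the tumours was close to that of Col1a1, with KP 5 again at the top and KPH2 4 at the bottom. These changes rested on single tumours. Without KP 5 the log2 fold changes were 7.9e-04 for Col1a1 and -0.24 for Col1a2, and without KPH2 3 they were -1.16 and -1.17. Two-sided exact permutation tests on the mean log2 CPM gave p = 0.49 and p = 0.4 for the pair over 7 tumours, where the smallest p possible is 0.029.

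Col3a1, the only chain of type III, was the steadiest of the abundant members. It was at 7565, 6313, 6813 and 7212 CPM across KP 5, 6, 7 and 8, against 6796, 7720 and 4862 CPM in KPH2 2, 3 and 4. KPH2 1 had the lowest level of all at 4251 CPM. The KP mean was 6976 ± 538 CPM (SD, n = 4) against 6459 ± 1459 CPM (SD, n = 3) for KPH2 2 to 4, and the log2 fold change of -0.12 (SE 0.21) had an interval from -0.61 to 0.36, with an adjusted p of 0.819 by edgeR. The balance of types III and I varied between tumours. Per kb, Col3a1 exceeded Col1a1 by 1.49, 4.97, 2.77 and 4.36 times in KP 5, 6, 7 and 8, by 4.00, 2.53 and 7.38 times in KPH2 2, 3 and 4, and by 3.46 times in KPH2 1. These ratios overlapped between the groups. With the exons of all GENCODE transcripts as the length the mean ratio in KP tumours was 2.13 in place of 3.40, and the lowest of the 8, in KP 5, was 0.937.

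**Figure D3:**
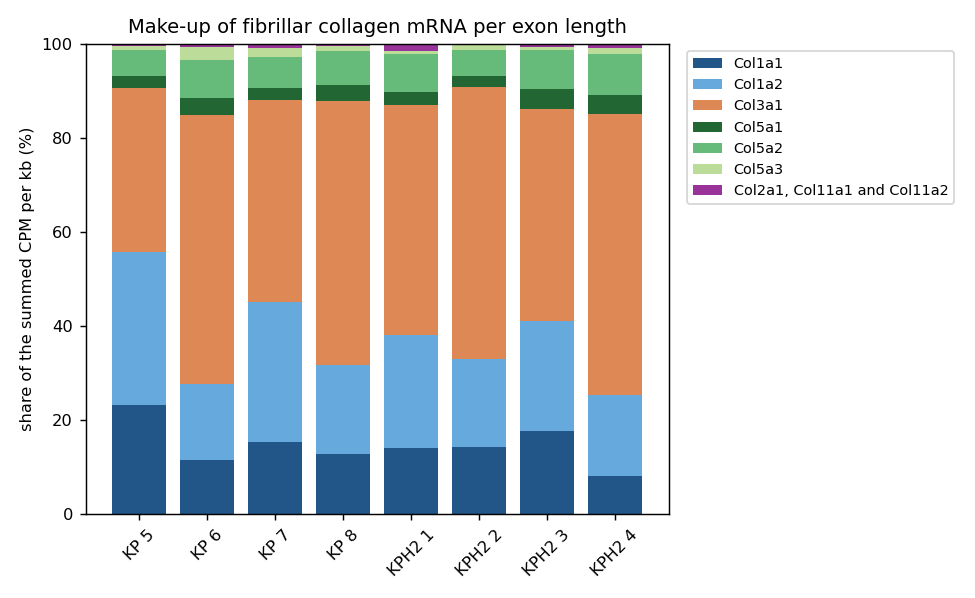
Share of each chain in the summed CPM per kb of the 9 genes, in percent, with 1 stacked bar per tumour. Col3a1 takes from 34.7% in KP 5 to 59.8% in KPH2 4, and the type I chains take the largest part in KP 5, where Col1a1 holds 23.3% and Col1a2 32.6%.

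The 3 type V chains did not share a pattern. Col5a1, the α1 chain found in nearly all type V molecules, measured 851, 578, 613 and 624 CPM across KP 5, 6, 7 and 8, then 398, 1063 and 486 CPM across KPH2 2, 3 and 4, with KPH2 1 at 349 CPM. Col5a2, the α2 chain, measured 1460.2, 1084.5, 1251 and 1127 CPM across KP 5, 6, 7 and 8, then 783, 1693 and 843 CPM across KPH2 2, 3 and 4, with KPH2 1 at 830.4 CPM. For both chains KPH2 3 was the highest tumour and the other KPH2 tumours lay below every KP tumour, so the KPH2 group surrounded the KP group. The log2 fold changes were -0.05 (interval -0.82 to 0.72, adjusted p = 0.961 by edgeR) for Col5a1 and -0.16 (interval -0.82 to 0.49, adjusted p = 0.822) for Col5a2. Without KPH2 3 they were -0.60 and -0.61, and without KPH2 2 they were 0.21 and 0.04.

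Col5a3, the α3 chain with a narrower tissue range than the other type V chains, had its lowest levels in KPH2 tumours without passing the adjusted test. It measured 172, 338, 347 and 149.7 CPM across KP 5, 6, 7 and 8, then 149.2, 140.4 and 127 CPM across KPH2 2, 3 and 4, with KPH2 1 at 67.0 CPM. The groups did not overlap, but KP 8 and KPH2 2 were all but equal, and the high KP mean came from KP 6 and KP 7. The KP mean was 252 ± 106 CPM (SD, n = 4) against 139 ± 10.9 CPM (SD, n = 3) for KPH2 2 to 4, and the log2 fold change was -0.87 (SE 0.33, interval -1.63 to -0.12). Its unadjusted p was 0.0280 and its adjusted p 0.213 by edgeR, and the exact permutation test gave p = 0.14 over 7 tumours. With KPH2 1 included the fold change was -1.07 on the log2 scale, with an adjusted p of 0.234 by edgeR and an exact permutation p of 0.029, the smallest that test can give. The groups were also apart on the deposited log2 values and on counts scaled to the total count alone, which are other scalings of the same counts. On the log2 values the lowest KP tumour was at 10.568 and the highest KPH2 tumour at 10.565.

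The cartilage chains were few in number of reads except for Col11a1. Col2a1, the single chain of type II, had counts of 66, 11, 4 and 28 in KP 5, 6, 7 and 8, and of 64, 41, 96 and 9 in KPH2 1, 2, 3 and 4. As levels these were 4.93, 1.54, 0.583 and 2.14 CPM in KP tumours, 3.75, 9.64 and 1.01 CPM in KPH2 2, 3 and 4, and 5.01 CPM in KPH2 1. The groups overlapped, the log2 fold change was 1.01 with a wide interval from -0.83 to 2.84, and the adjusted p was 0.567 by edgeR. Without KPH2 3, the highest tumour, the log2 fold change was 0.01, and without KP 5 it was 1.70. Col11a1, the α1 chain of type XI that is also made outside cartilage, measured 141, 80.5, 162 and 60.7 CPM across KP 5, 6, 7 and 8, then 15.4, 109 and 82.5 CPM across KPH2 2, 3 and 4, with KPH2 1 at 162 CPM. Here KPH2 2 was the lowest tumour and KPH2 1 was level with KP 7, the highest KP tumour. The log2 fold change was -0.70 (interval -2.12 to 0.72, adjusted p = 0.611 by edgeR) over 7 tumours and -0.26 over all 8, and it was -0.22 without KPH2 2, -0.45 without KP 7 and -1.19 without KPH2 3.

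Col11a2, the α2 chain of type XI, was the member with the largest fitted change. It had counts of 35, 9, 22 and 22 in KP 5, 6, 7 and 8, and of 61, 62, 84 and 29 in KPH2 1, 2, 3 and 4. As levels these were 2.62, 1.26, 3.21 and 1.68 CPM in KP tumours, 5.67, 8.43 and 3.26 CPM in KPH2 2, 3 and 4, and 4.78 CPM in KPH2 1. Every KPH2 tumour was above every KP tumour, although KPH2 4 exceeded KP 7 by a small step. The KP mean was 2.19 ± 0.884 CPM (SD, n = 4) against 5.79 ± 2.59 CPM (SD, n = 3) for KPH2 2 to 4, and the log2 fold change was 1.39 (SE 0.43, interval 0.40 to 2.37). Its unadjusted p was 0.0115 and its adjusted p 0.144 by edgeR, and DESeq2 gave an adjusted p of 0.0523, the lowest of any member under any setting. The exact permutation test gave p = 0.057 over 7 tumours, and p = 0.029 over all 8. The counts behind it were low in every tumour.

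The 2 chains of type I varied together from tumour to tumour, as did 2 of the 3 chains of type V. Across the 8 tumours the log2 CPM of Col1a1 and Col1a2 had a Pearson r of 0.961 (exact permutation p = 0.000298, adjusted p = 0.00119 over 8 pairs) and a Spearman rho of 0.929 (p = 0.00223, adjusted p = 0.00892). For Col5a1 and Col5a2 the r was 0.964 (exact permutation p = 0.000248, adjusted p = 0.00119) and the rho 0.952 (p = 0.00114, adjusted p = 0.00892). Leaving out the 2 tumours farthest from the median gave 0.919 and 0.963, and deviations from the group means gave 0.954 and 0.961, so neither relation rested on those tumours or on the difference between groups. The ratio per kb of Col1a1 to Col1a2 kept to 0.655 ± 0.0887 (SD, n = 4) for KP against 0.669 ± 0.171 (SD, n = 3) for KPH2 2 to 4, and that of Col5a1 to Col5a2 to 0.426 ± 0.0310 and 0.450 ± 0.0473. Col5a3 had an r of 0.355 to Col5a1 (exact permutation p = 0.393, adjusted p = 0.524), which was 0.243 without the 2 farthest tumours and -0.046 without KPH2 1, and a ratio to it of 0.547 ± 0.283 in KP and 0.352 ± 0.167 in KPH2 tumours. The type XI chains had an r of -0.093 (exact permutation p = 0.83), which was 0.562 without the 2 farthest tumours, KP 7 and KPH2 2. Col11a1 stood at 0.508 of Col5a1 per kb in KPH2 1 but at 0.0425 to 0.290 in the other 7 tumours. The neighbours Col3a1 and Col5a2 had an r of 0.724 (exact permutation p = 0.0421, adjusted p = 0.112) and a rho of 0.833 (p = 0.0154, adjusted p = 0.0411), with an r of 0.687 without the 2 farthest. Col2a1 had an r of -0.061 to Col11a1 (exact permutation p = 0.895) and of 0.566 to Col11a2 (p = 0.144), and Col5a2 an r of 0.364 to Col5a3 (p = 0.386). Without the 2 farthest tumours these were 0.097, 0.496 and 0.610. All the points share their libraries, and fewer than 6 tumours per group left no correlation to be given within a group.

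**Figure D4:**
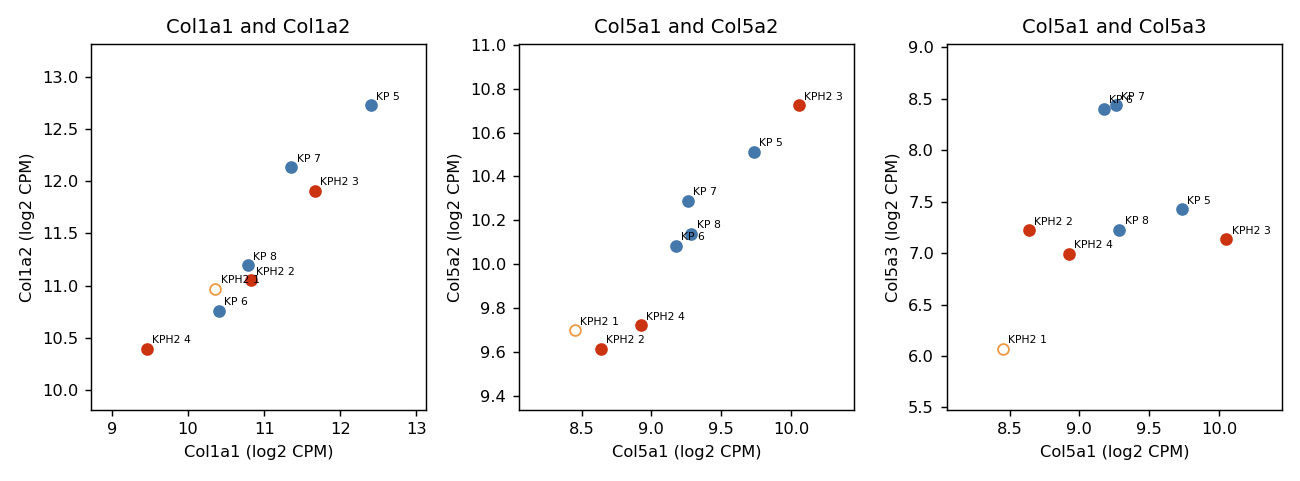
Log2 CPM of 2 chains of one collagen type against each other, 1 point per tumour, for Col1a1 and Col1a2, Col5a1 and Col5a2, and Col5a1 and Col5a3. Blue points are KP, red points KPH2 2 to 4 and the open point KPH2 1. The first 2 pairs lie along a line (r of 0.961 and 0.964), and the third is scattered (r of 0.355).

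In all, 14684 genes outside the members were compared with Col1a1 by Pearson r of log2 CPM over the 8 tumours. This compares the pattern and not the size of a level. The most alike were Dexi, Numa1, Phkg2, Osbpl5 and Fkbp10, with r from 0.938 to 0.948. For Col11a1 they were Slc27a6 (r = 0.993), Slc23a1 (0.961), Dpp8 (0.955), Gm19325 (0.947) and Wtip (0.944), and for Col2a1 Prss36 (0.962), G430095P16Rik (0.940), Cog7 (0.925), Kbtbd7 (0.920) and Macrod1 (0.914). These genes are the highest of many over 8 tumours and are given as a description. Some were near the floor. Slc27a6 was at 0 CPM in KPH2 2, the lowest tumour for Col11a1, and at 0.688 to 2.92 CPM in the others. Gm19325 ran from 0.640 to 4.01 CPM and G430095P16Rik from 0.729 to 2.91 CPM.

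The other 2 fibrillar chains, Col24a1 and Col27a1, were also not called. Col27a1, a chain of cartilage and other tissues, was at 39.0, 72.5, 144 and 82.1 CPM across KP 5, 6, 7 and 8, against 16.3, 33.1, 35.7 and 24.5 CPM across KPH2 1, 2, 3 and 4. Its groups did not overlap, beside 7.83% of all tested genes lower without overlap, while those of Col24a1 did. The log2 fold change of Col27a1 was -1.45 with an adjusted p of 0.121 by edgeR, and that of Col24a1 was -0.58 (adjusted p = 0.570). Of 9 FACIT collagens, which sit on the surface of fibrils, 6 were tested and 0 called, with a median log2 fold change of 0.46. The smallest p values belonged to Col22a1 (log2 fold change 2.22, adjusted p = 0.0951), Col16a1 (-1.09, adjusted p = 0.270) and Col20a1 (-0.90, adjusted p = 0.318).

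Genes for the handling of procollagen were 8 tested of 9 and 0 called, with a median log2 fold change of 0.16. Pcolce2, an enhancer of the C-proteinase, had 1.11, Adamts2, which removes the N-propeptide, 0.91, and Bmp1, which removes the C-propeptide, 0.28 on the log2 scale. Their adjusted p values by edgeR were 0.317, 0.394 and 0.521. Of 8 collagen receptors 1 was called over 7 tumours, beside 1.96% of all tested genes, and 0 over all 8, beside 0.00675%. Ddr1, a receptor tyrosine kinase that collagen activates, rose from 16.6, 8.52, 6.27 and 20.9 CPM across KP 5, 6, 7 and 8 to 49.7, 72.6 and 44.4 CPM across KPH2 2, 3 and 4, a log2 fold change of 2.06 with an adjusted p of 0.0456 by edgeR. KPH2 1 stood at 6.82 CPM for Ddr1, within the KP range, and over all 8 tumours the adjusted p was 0.277. The other receptors with the smallest p were Itga2 (log2 fold change -1.42, adjusted p = 0.282) and Mrc2 (-0.32, adjusted p = 0.406), and the median of the receptors was -0.11. Among 10 tested regulators of collagen genes, 0 were called and the median was 0.35. Scx, a tendon transcription factor, had 1.73 (adjusted p = 0.0940), Ctgf, a matricellular target of TGF-β, -1.73 (adjusted p = 0.148), and Sox6, a partner of Sox9 on cartilage genes, 1.58 (adjusted p = 0.160).

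Marker genes of other tissues were set beside these levels. Of 12 cartilage markers 5 passed the filter and 0 were called, with summed levels of 13.1 to 34.4 CPM in KP, 17.3 to 22.5 CPM in KPH2 2 to 4 and 46.3 CPM in KPH2 1. Hapln1, a link protein of cartilage, had a log2 fold change of 2.29 (adjusted p = 0.195 by edgeR), Comp -1.24 (adjusted p = 0.576) and Col10a1 -0.04 (adjusted p = 0.959). Summed bone markers ran from 3.94 to 10.2 CPM in KP, from 31.2 to 44.4 CPM in KPH2 2 to 4 and stood at 19.7 CPM in KPH2 1. Of 2 tested 1 was called, beside 1.96% of all tested genes. Dmp1, a matrix protein of osteocytes, had a log2 fold change of 4.57 (adjusted p = 0.00514 by edgeR over 7 tumours and 0.0388 over all 8), Phex had 1.46 (adjusted p = 0.150), and Sost, another osteocyte gene, was at 0 in every tumour. Tendon markers summed to 77.0 to 335.0 CPM in KP, 80.9 to 259.8 CPM in KPH2 2 to 4 and 587 CPM in KPH2 1, with 0 of 5 called, and besides Scx the smallest p belonged to Tnmd (log2 fold change -2.20, adjusted p = 0.365) and Thbs4 (-0.86, adjusted p = 0.536). The groups did not overlap for Dmp1, beside 9.01% of all tested genes higher without overlap, but did for Phex, and the other 5 listed bone markers, Bglap, Ibsp, Sp7 and Mepe besides Sost, had counts of 0 to 4 per tumour and were not tested. The part of these tissues in the levels of Col11a2 was not tested.

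Fibroblast markers summed to 14605 to 36833 CPM in KP, 13432 to 20681 CPM in KPH2 2 to 4 and 22845 CPM in KPH2 1. Fn1, named after its values were seen, was the largest part of the sum in every tumour. It ran from 5398 to 24637 CPM in KP and from 8124 to 12757 CPM in KPH2 2 to 4, with KPH2 1 at 16596.5 CPM. Of 11 tested 1 was called, beside 1.96% of all tested genes: Pdgfra, a receptor of stromal fibroblasts, fell from 1503, 911, 709 and 859 CPM in KP 5, 6, 7 and 8 to 227, 274 and 238 CPM in KPH2 2, 3 and 4, with a log2 fold change of -2.02 and an adjusted p of 0.0183 by edgeR. In KPH2 1 it stood at 627 CPM, and the adjusted p over all 8 tumours was 0.160. Dcn (-1.89, adjusted p = 0.122) and Lum (-2.27, adjusted p = 0.225), small proteoglycans that bind collagen fibrils, were the next by p, and the median of the list was -0.87. By the fitted change 8 of the 11 were lower and 3 higher, S100a4 (0.76), Fap (0.26) and Vim (0.13), named after their values were seen. Skeletal muscle markers summed to 1754 to 3266 CPM in KP, 4111 to 19005 CPM in KPH2 2 to 4 and 1430.3 CPM in KPH2 1, so KPH2 1 lay below every KP tumour and the other KPH2 tumours above. All 18 had a higher fitted level in KPH2 tumours (median log2 fold change 2.20), with 8 not overlapping (beside 9.01% of all tested genes higher without overlap) and 1 called (beside 1.96%), Neb, a giant protein of the thin filament (2.23, adjusted p = 0.0430 by edgeR over 7 tumours and 0.243 over all 8), followed by Ttn (2.18, adjusted p = 0.0554) and Myh1 (2.84, adjusted p = 0.0592). The part of muscle in the levels of the 9 chains was not tested.

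Macrophage markers summed to 2375 to 4255 CPM in KP, 1779 to 2603 CPM in KPH2 2 to 4 and 2167 CPM in KPH2 1. Of 10 tested 0 were called by edgeR, with a median log2 fold change of -0.55, and Mrc1 (-1.53), Cd163 (-1.13) and Csf1r (-0.57) had the smallest p. Of the 10, 2 did not overlap between the groups, both lower in KPH2 tumours, beside 7.83% of all tested genes lower without overlap. They were Cd163 and C1qb, the latter named after its values were seen. Endothelial markers summed to 252 to 518 CPM in KP, 275 to 283 CPM in KPH2 2 to 4 and 192 CPM in KPH2 1. Of 7 tested 0 were called, with a median of -0.55, and Kdr (-0.72), Pecam1 (-0.78) and Tek (-0.46) led by p. Kdr, a VEGF receptor, and Pecam1, an adhesion molecule of vessel lining cells, did not overlap between the groups, beside 7.83% of all tested genes lower without overlap. The other 5 overlapped, and Vwf (0.13) and Cldn5 (0.39), named after their values were seen, had the opposite sign. The part of these cells in the level of Col5a3 was not tested.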

How the data were processed

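RNA from formalin-fixed, paraffin-embedded sections of 8 tumours was depleted of ribosomal RNA and sequenced as stranded single-end libraries. The authors aligned reads to GRCm38 with STAR 2.4 and deposited raw counts of unique alignments per RefSeq gene from htseq-count 0.6.1, without normalization. They also deposited log2 values, made by the regularized log of DESeq2 1.6 over 7 and over 8 tumours, which shrinks low counts. Counts were tested with edgeR 4.0.16 in R 4.3.3 (TMM, minimum count 10, minimum total count 15, robust quasi-likelihood, no covariates) on KP 5 to 8 against KPH2 2 to 4. P-values were adjusted by the Benjamini-Hochberg method across every gene tested, and 0.05 was the threshold. Alternatives were all 8 tumours, other scalings and filters, no robust estimates, DESeq2 1.42.0, limma 3.58.1 on the deposited log2 values, and leaving out each tumour. The scripts were tested on simulated data.

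CPM used TMM library sizes over all genes and 8 tumours, and log2 CPM a prior count of 2. Exact permutation tests (SciPy 1.17.1, two-sided) compared mean log2 CPM over all splits. Lengths came from exons of GENCODE M21 transcripts linked to RefSeq, and positions and promoters from RefSeq. All members are named. From each list the up to 3 genes with the smallest p and any called gene are named, with the 5 genes most correlated with Col1a1, Col2a1 and Col11a1. The members and lists were chosen with earlier results of these data known. The closest libraries, KP 6 and KP 8, still differed by more than sampling noise (28.3 as chi-square over its degrees of freedom), so each tumour was counted as a separate sample. Total counts of 6463221 to 13155510 left fewest counts to Col2a1 and Col11a2, and the interval of the fold change was widest for Col2a1. A further allele that both groups share is not reported here.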

Additional observations from a re-analysis of the deposited data

Results flagged for a closer look

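In KP tumours Col5a1 was highest in KP 5 at 851 CPM, a value farther from the other 3 than the usual limit of Dixon's test for 4 samples allows. In KPH2 tumours Col5a2 was highest in KPH2 3 at 1693 CPM by the same test, the other 3 lying at 783 to 843 CPM. With 9 chains and both groups tested, a flag or so of this kind arises by chance alone. KPH2 1, which the main comparison left out, held Col2a1 at 5.01 CPM and Col11a2 at 4.78 CPM, both above every KP tumour, whose highest values were 4.93 and 3.21 CPM. Scaled to the total count alone, Col2a1 in KPH2 1 was at 4.89, below the highest KP tumour at 5.02, while Col11a2 stayed above.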

How the results depend on the processing

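No chain passed the adjusted p of 0.05 under any of 16 alternative settings, and 136 of 142 fitted changes kept their direction. The lowest adjusted p was 0.0523, for Col11a2 with DESeq2. The 6 that turned came from leaving out 1 tumour: without KP 5, Col1a1 (7.9e-04) and Col5a1 (0.09), without KPH2 2, Col5a1 (0.21) and Col5a2 (0.0382), and without KPH2 4, Col3a1 (0.0424) and Col5a1 (0.12), all on the log2 scale. The cause was not tested. With 1 tumour left out the ranges were -1.16 to 7.9e-04 for Col1a1, -0.27 to 0.0424 for Col3a1, -0.60 to 0.21 for Col5a1, -0.61 to 0.0382 for Col5a2, 0.01 to 1.70 for Col2a1 and -1.19 to -0.22 for Col11a1. Over the settings Col5a3 ranged from -1.07 to -0.50 and Col11a2 from 0.59 to 1.67 on the log2 scale, the smallest from limma on the shrunken log2 values. With a mean count of at least 50 Col2a1 and Col11a2 could not be fitted. Over all 8 tumours the differences in mean log2 CPM of Col5a3 (-1.02) and Col11a2 (1.27) passed 0.05 by the exact permutation test on the single gene. Among all tested genes 292 were called in the 7 tumours, 1 in all 8, 1166 by DESeq2 and 55 to 349 with 1 tumour left out. With the exons of all GENCODE transcripts, a length added after seeing the data, levels per kb in KP tumours fell to 711 for Col3a1, 128 for Col5a2, 309.7 for Col1a2, 8.72 for Col11a1 and 0.249 for Col2a1. No paired analysis was possible because the KP and KPH2 tumours share no replicate number.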
